A study of Mus musculus with 12 samples.

Results

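The comparison described here is what loss of Notch1 added to mouse cochlear tissue in which β-catenin was already active. It set the 3 samples labelled b-catenin-OE and Notch1-KO, called the double group, against the 3 samples labelled b-catenin-OE, called the β-catenin OE group. These 6 samples, taken by their labels, are 6 of the 12 in the series. The other 6 samples, 3 labelled Notch1-KO and 3 labelled Control, entered the same model and gave the effect of Notch1 loss without β-catenin activation. OE stands for overexpression and KO for knockout. All 4 groups were cochlear tissue at postnatal day 7, dissected as the apical and middle turns, and each sample pooled at least 6 cochleae. The labels name neither the alleles, the promoter or Cre line behind them, nor the cells in which they act, and they give the Control group no genotype. Expression was measured by RNA sequencing, as FPKM, which counts fragments per kilobase of transcript relative to library size. Whether the samples of a group were separate pools of animals is not in the labels. The p-values therefore reflect the spread among these libraries alone, which may be technical.

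The organ of Corti, the sensory epithelium of the cochlea, is made of hair cells, which turn sound into electrical signals, and the supporting cells around them. Developing hair cells carry Notch ligands on their surface, and Notch1 in the neighbouring cells is cut upon binding so that its intracellular part joins the DNA-binding protein RBPJ and switches on Hes and Hey repressors, which hold those cells in the supporting cell fate. In the Wnt pathway, stabilised β-catenin joins TCF and LEF factors in the nucleus, and in the neonatal cochlea this is known for driving supporting cells to divide. The design text of the series names supporting cell proliferation and mitotic production of hair cells as its subject.

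Notch1 itself (chromosome 2, 26457674 to 26503822, mm10) was checked first. Its level was 8.62, 5.70 and 5.77 FPKM in the double group, against 37.6, 15.7 and 16.7 FPKM in the β-catenin OE group. The double samples were all below the β-catenin OE samples, and β-catenin OE sample 1 was far above samples 2 and 3 of its group. The fall was -1.64 ± 0.30 on the log2(FPKM + 0.5) scale, the scale of every fold change here, with ± the standard error (limma, n = 3 per group, Benjamini-Hochberg adjusted p = 0.0175). Transcript remained in every double sample. The labels do not say which exons were removed, so the level of the whole transcript checks the labels only as far as the removed part lowers it. Ctnnb1, the gene of β-catenin, had 408, 482 and 472 FPKM in the double group and 372, 411 and 410.4 FPKM in the β-catenin OE group, ranges that overlapped (limma adjusted p = 0.425). Both groups carry the OE label, so this comparison cannot check it. The Control group had 435, 369 and 372 FPKM, which overlapped the β-catenin OE samples. Defining markers of the tissue were present in all 6 samples. Hair cell markers Myo7a, Pou4f3 and Otof ranged from 2.25 to 33.7 FPKM, and supporting cell markers Sox2, Prox1, Gjb2 and Tectb from 2.72 FPKM for Prox1 to 5164 FPKM for Tectb.

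Libraries 2 and 3 of each group stood close together and apart from library 1. In 5889 genes that reached 10 FPKM in every sample, the log2 difference between samples 2 and 3 had a robust SD of 0.0744 in the double group and 0.0879 in the β-catenin OE group, against 0.303 to 0.438 when either was set against sample 1. Sex-linked transcripts also set the libraries apart. The Y-linked genes Ddx3y, Eif2s3y, Kdm5d and Uty were listed at 0 in β-catenin OE sample 1 and were detected in the other 5 samples. Xist, made from the inactive X chromosome, had 19.5, 0.0239 and 0.0146 FPKM in the double group and 134, 21.9 and 20.8 FPKM in the β-catenin OE group. Sex-linked levels thus differed between libraries and groups, and their part in the results was not tested. β-catenin OE sample 1 also differed from its group in known Wnt-responsive genes. Within this group the level of Dkk4, a secreted Wnt inhibitor, was 1.18, 66.1 and 63.2 FPKM, and that of Lgr5, a receptor for R-spondins, was 50.1, 33.01 and 32.3 FPKM. For the genes that carry the results, the difference is therefore also given between the samples numbered 1 alone and between samples 2 and 3 alone.

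Across the transcriptome, 396 of 14581 tested genes (2.72%) differed between the double and β-catenin OE groups in limma at an adjusted p under 0.05. Of these, 178 (1.22%) were higher and 218 (1.5%) lower in the double group. The median change was 0.98 among the higher genes and -0.85 among the lower ones, and 85 rose and 82 fell by at least 1 on the log2 scale. All 396 kept the double samples apart from the β-catenin OE samples with no overlap, which 4189 of all tested genes (28.7%) did, 1834 (12.6%) with the double samples above and 2355 (16.2%) with them below. A gene without overlap must move in the same direction between the samples numbered 1 and between samples 2 and 3, so all 396 did. Of all 14581 tested genes, 9356 did. The higher genes had a median difference of 1.06 between the samples numbered 1 and 0.94 between samples 2 and 3. For the lower genes these medians were -1.09 and -0.79.

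How many genes passed rested on how samples 2 and 3 were treated. When they were averaged into 1 value, 0 genes passed in limma, with 1202 at an unadjusted p under 0.05, and when they were entered as a random block with their estimated correlation of 0.893, 19 passed. No other gene could pass in 25 of the 26 other settings tried, since averaging passed 0 and the random block only these 19. All 19 passed in the other 25, in the same direction. Among them were Slc6a14, Umodl1, Pcsk2, Nrcam, Lfng, Heyl, Aldh1a2, Rbm24, Otogl, Syt1, Fam102b and Cxadr, which were lower in the double group, and Glul, Rasd2, Smoc2, Ivl and Gm6537, which were higher. Nrcam, Fam102b, Cxadr, Glul, Smoc2 and Gm6537 are named here after their values were seen. Single libraries moved the count by more than 1.5 times as well. It was 245, 113 and 131 without double samples 1, 2 and 3, it was 169 and 211 without β-catenin OE samples 2 and 3, and it was 238 and 243 without Notch1-KO samples 2 and 3. Without Control sample 1 it was 1023.

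**Figure D1:**
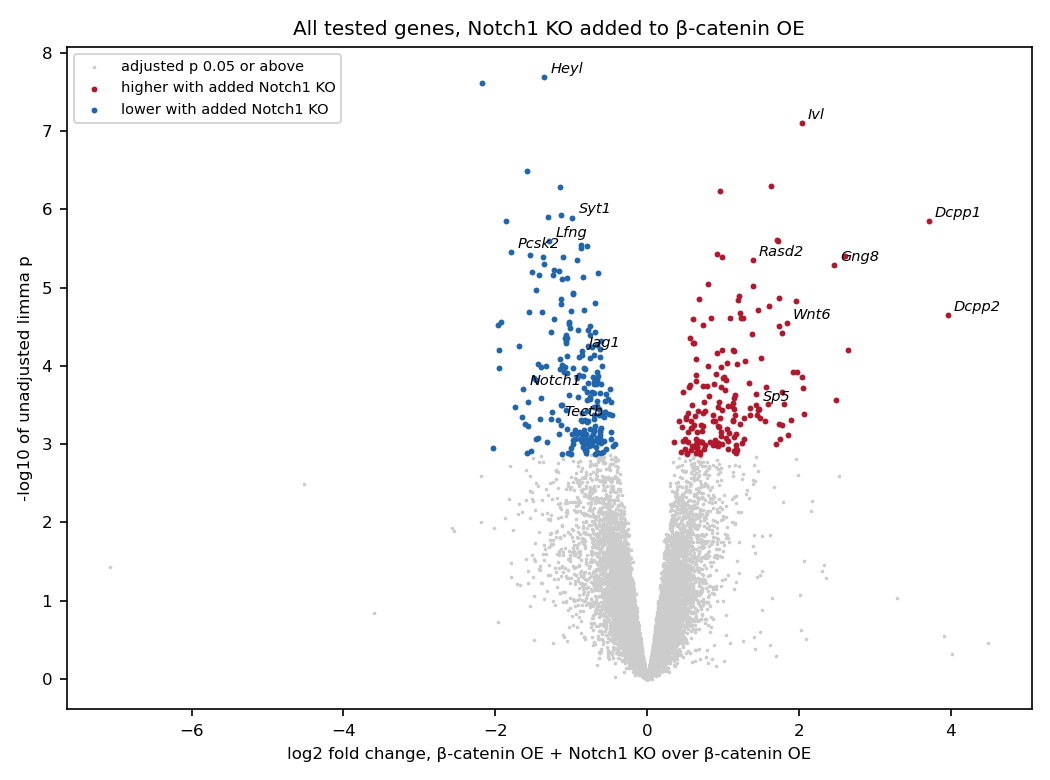
Each point is 1 of the 14581 tested genes, with the log2 fold change of the double over the β-catenin OE group on the x axis and -log10 of the unadjusted limma p on the y axis. Red points mark the 178 higher and blue points the 218 lower genes that passed, with Heyl near the top on the lower side and Ivl at the top on the higher side.

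In the Notch pathway the effectors Heyl, Lfng and Hey1 fell. Heyl (chromosome 4, 123233556 to 123249870), a Hes-related repressor switched on by Notch, had 5.87, 6.94 and 6.73 FPKM in the double group, against 17.2, 17.8 and 17.3 FPKM in the β-catenin OE group. The 3 samples of each group lay close together and the groups were well apart, with library 1 no exception. Heyl fell with a fold change of -1.36 ± 0.099 (limma adjusted p = 0.000174), which was -1.47 between the samples numbered 1 and -1.30 between samples 2 and 3. Lfng (chromosome 5, 140603667 to 140615679), the lunatic fringe enzyme that adds sugars to Notch receptors and is itself a Notch target in supporting cells, had 18.6, 24.1 and 22.8 FPKM in the double group and 68.3, 46.7 and 48.3 FPKM in the β-catenin OE group. No sample overlapped, although the difference between the samples numbered 1, -1.85, exceeded that between samples 2 and 3, -1.004. Its fold change was -1.29 ± 0.15 (limma adjusted p = 0.0024). Hey1 (chromosome 3, 8663359 to 8667038), a second Hey repressor, had 26.5, 23.8 and 24.5 FPKM in the double group and 54.1, 34.6 and 34.8 FPKM in the β-catenin OE group. Hey1 passed narrowly at -0.68 ± 0.16 (limma adjusted p = 0.0493) and did so in 5 of the 26 other settings.

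Other effectors did not pass. Hes1, a repressor that answers to Notch and to other signals, had 24.8, 19.7 and 19.97 FPKM in the double group and 10.8, 16.6 and 16.4 FPKM in the β-catenin OE group, a difference of 0.56 ± 0.17 on the side opposite to Heyl (limma adjusted p = 0.118). Hes5, a Notch target of prosensory and supporting cells, was below 0.5 FPKM in all 6 samples, at 0.149, 0.159 and 0.201 FPKM in the double group and 0.350, 0.487 and 0.473 FPKM in the β-catenin OE group, with no overlap but without passing (-0.48 ± 0.35, limma adjusted p = 0.494). At such low levels the pseudocount draws the fold change of Hes5 toward 0. Over the 26 other settings it ranged from -0.99 to -0.296, and Hes5 passed in 0. Hey2, which marks pillar cells among the supporting cells, had 20.9, 19.9 and 20.1 FPKM in the double group and 20.04, 29.1 and 26.7 FPKM in the β-catenin OE group, with overlapping samples. Nrarp, a feedback inhibitor of Notch, had 16.9, 11.8 and 12.5 FPKM in the double group and 14.1, 20.2 and 19.8 FPKM in the β-catenin OE group, also overlapping. Of the 11 effectors tested, 3 fell, 0 rose and 8 did not pass, where 1.5% of all tested genes fell. Their median log2 fold change was -0.32, beside 0.003 over all tested genes.

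Among the ligands, Jag1 and the atypical ligand Dlk2 moved in opposite directions. Jag1 (chromosome 2, 137081451 to 137118630), the ligand that marks the prosensory domain and later the supporting cells, had 34.7, 33.8 and 35.1 FPKM in the double group, against 72.8, 59.7 and 57.2 FPKM in the β-catenin OE group. The double samples were nearly equal to each other and all lay below the lowest β-catenin OE sample. Jag1 fell with a fold change of -0.85 ± 0.14 (limma adjusted p = 0.00937), -1.06 between the samples numbered 1 and -0.75 between samples 2 and 3. Dlk2, a membrane protein related to the Delta ligands that lacks the receptor-activating domain, had 13.7, 10.2 and 8.65 FPKM in the double group and 5.16, 3.82 and 4.81 FPKM in the β-catenin OE group. Dlk2 rose by 1.14 ± 0.24 (limma adjusted p = 0.0292). Neurl1b, a ubiquitin ligase that helps ligands enter the cell, fell at low levels with a fold change of -0.73 ± 0.16 (limma adjusted p = 0.0397). Jag2, a ligand of hair cells, had 9.28, 5.52 and 5.62 FPKM in the double group and 5.58, 3.95 and 4.45 FPKM in the β-catenin OE group, with overlapping samples (limma adjusted p = 0.33). Dll1, another ligand of nascent hair cells, was under 1 FPKM in all 6 samples (limma adjusted p = 0.565). In all, 1 of the 10 tested ligands and ligand modulators rose, 2 fell and 7 did not pass. Over all tested genes, 1.22% rose and 1.5% fell.

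The other receptors, and all but 1 of the genes of the processing machinery, did not pass. Notch2 had 4.99, 2.74 and 2.95 FPKM in the double group and 7.18, 3.80 and 3.82 FPKM in the β-catenin OE group, and Notch3 had 8.56, 4.73 and 4.99 FPKM in the double group and 12.4, 5.09 and 5.69 FPKM in the β-catenin OE group. Samples overlapped for both, and neither passed (limma adjusted p = 0.538 for Notch2 and 0.731 for Notch3). Of 20 tested genes of receptor processing and the nuclear complex, only Lfng passed. The median of -0.046 was -0.20 between the samples numbered 1 and 0.043 between samples 2 and 3. Rbpj, the DNA-binding partner of the cut receptor, had 23.2, 24.6 and 26.4 FPKM in the double group and 26.7, 24.3 and 23.8 FPKM in the β-catenin OE group (limma adjusted p = 0.956). Mfng, the manic fringe enzyme found in hair cells, had 10.03, 7.81 and 7.01 FPKM in the double group and 4.76, 4.41 and 5.97 FPKM in the β-catenin OE group, with no overlap but without passing (0.66 ± 0.18, limma adjusted p = 0.0904).

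**Figure D2:**
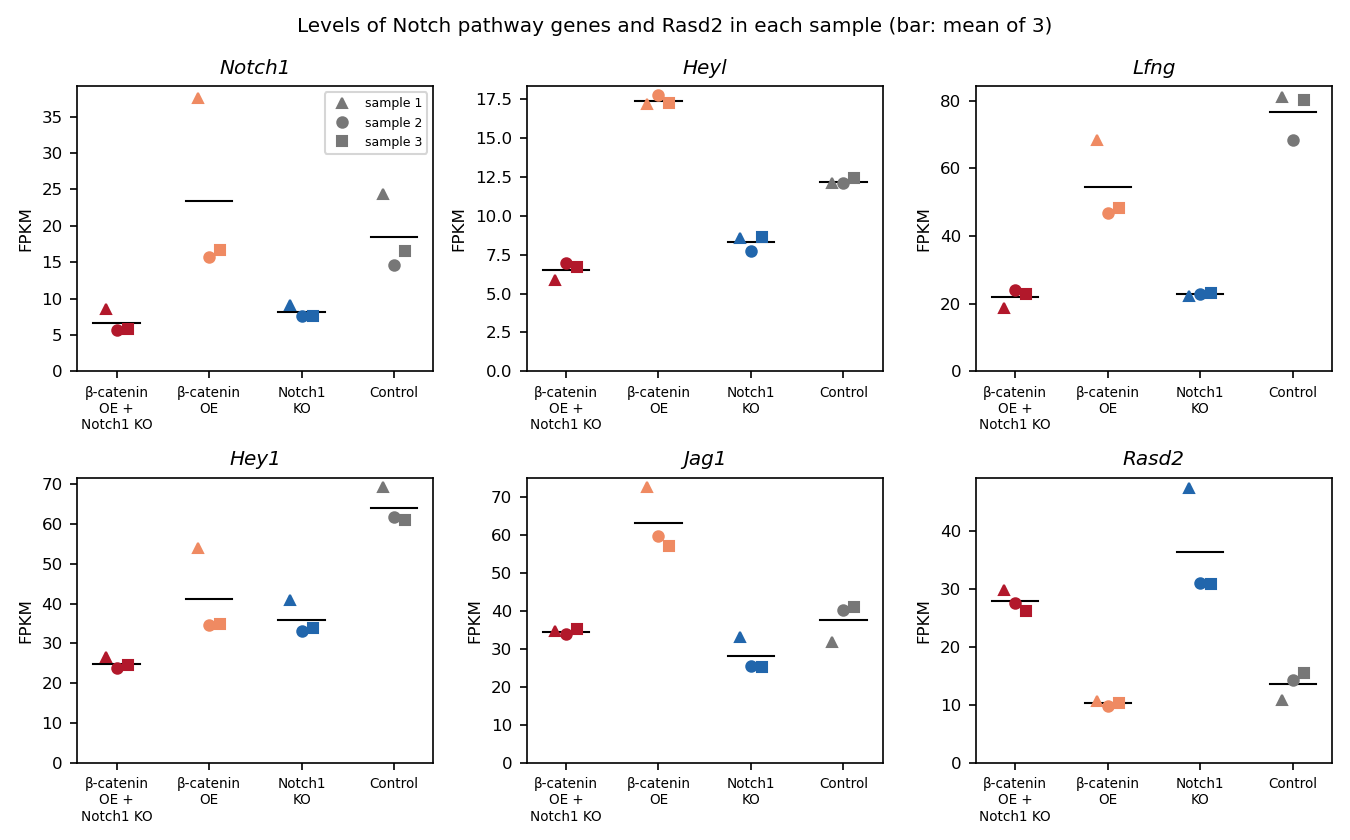
FPKM of Notch1, Heyl, Lfng, Hey1, Jag1 and Rasd2 in each of the 12 samples, with groups on the x axis, symbols for sample numbers and a bar at the group mean. For all 6 genes the double samples stand clear of the β-catenin OE samples, lower for Notch1, Heyl, Lfng, Hey1 and Jag1 and higher for Rasd2.

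Promoter sequence is shown for 3 genes, Lfng because it fell, Hes5 as a Notch target that did not pass, and Sp5, a Wnt target described below, because it rose. The windows are the 250 bases before the RefSeq start (GRCm38.p6, the mm10 assembly), cut short for Lfng where an annotated transcript starts earlier. Each is on the plus strand, at chr5:140607091-140607319, chr4:154960673-154960922 and chr2:70474673-70474922. Capitals mark the RBPJ core TGGGAA and the TCF/LEF core CTTTGA, searched on both strands, where the opposite strand reads TTCCCA and TCAAAG. The motifs share no bases with each other in these windows.
Lfng: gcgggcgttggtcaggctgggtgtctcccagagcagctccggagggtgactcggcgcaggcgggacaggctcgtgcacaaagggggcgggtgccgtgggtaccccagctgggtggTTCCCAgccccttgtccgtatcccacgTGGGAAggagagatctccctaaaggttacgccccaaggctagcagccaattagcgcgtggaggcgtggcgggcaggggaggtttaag
Hes5: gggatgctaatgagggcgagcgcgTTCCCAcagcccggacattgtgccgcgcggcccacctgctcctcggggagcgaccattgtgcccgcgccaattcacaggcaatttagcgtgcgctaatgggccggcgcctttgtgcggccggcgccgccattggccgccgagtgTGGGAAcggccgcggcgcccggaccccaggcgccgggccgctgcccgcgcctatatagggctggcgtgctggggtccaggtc
Sp5: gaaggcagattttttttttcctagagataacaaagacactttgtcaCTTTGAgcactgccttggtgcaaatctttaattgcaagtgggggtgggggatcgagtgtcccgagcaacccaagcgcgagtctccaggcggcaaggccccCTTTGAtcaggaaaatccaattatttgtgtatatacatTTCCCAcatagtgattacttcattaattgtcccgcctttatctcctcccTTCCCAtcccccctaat
The Lfng window holds 2 RBPJ cores, 1 on each strand, with their first bases at -135 and -108 relative to the RefSeq start. Hes5 also holds 1 on each strand, with first bases at -226 and -82. Sp5 holds 2 TCF/LEF cores and 2 RBPJ cores. Of 32851 mouse promoter windows of 250 bases, 21.6% hold at least 1 RBPJ core and 13.8% at least 1 TCF/LEF core. The windows of Notch1, Jag1, Nrarp, Rasd2 and the Wnt target Wif1, which rose, hold neither set of letters. Those of Hey2, which did not pass, and Gng8, which rose and is described below, hold 1 RBPJ core each. A match is a description of the sequence and not a binding site.

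Genes of early hair cells and of the hair bundle had mostly positive fold changes in the double group, and a few of them passed. In bulk tissue such as this, a change in the number of cells of a type and a change in RNA per cell cannot be told apart. Rasd2 (chromosome 8, 75213944 to 75224206), which encodes the small GTPase Rhes and stood on the early hair cell list, had 29.9, 27.5 and 26.2 FPKM in the double group, against 10.6, 9.87 and 10.4 FPKM in the β-catenin OE group. All double samples were well above all β-catenin OE samples, and library 1 lay with the others in both groups. Rasd2 rose by 1.39 ± 0.17 (limma adjusted p = 0.00242), 1.45 between the samples numbered 1 and 1.37 between samples 2 and 3. Pcp4, a calmodulin-binding protein, had 270.2, 261 and 264 FPKM in the double group and 172, 160.3 and 173 FPKM in the β-catenin OE group and rose by 0.65 ± 0.15 (limma adjusted p = 0.0483). Rbm24, an RNA-binding protein that hair cells use to splice their transcripts, went the other way, with 18.4, 16.8 and 16.8 FPKM in the double group and 44.3, 35.2 and 34.7 FPKM in the β-catenin OE group (-1.11 ± 0.13, limma adjusted p = 0.0024). Of 17 tested early hair cell genes, 3 rose (Rasd2, Dlk2 and Pcp4), 1 fell and 13 did not pass. The shares over all tested genes were 1.22% that rose and 1.5% that fell. The median of the list was 0.46. Its summed level was 491 to 507 FPKM in the double samples and 337 to 386 FPKM in the β-catenin OE samples. Pcp4 alone gave 261 to 270.2 FPKM of the sum in the double samples and 160.3 to 173 FPKM in the β-catenin OE samples.

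Of the 28 tested genes of the hair bundle, the mechanosensory antenna of the hair cell, 2 rose and 26 did not pass. The share of all tested genes that rose was 1.22%. Grxcr2, a protein at the base of stereocilia, had 28.8, 23.6 and 24.4 FPKM in the double group and 11.5, 12.5 and 14.5 FPKM in the β-catenin OE group (0.97 ± 0.18, limma adjusted p = 0.0168). Fscn2, an actin crosslinker of stereocilia, had 9.81, 9.63 and 9.50 FPKM in the double group and 5.59, 4.71 and 6.33 FPKM in the β-catenin OE group (0.76 ± 0.15, limma adjusted p = 0.0221). No samples overlapped for either gene. Of the 28 fold changes, 23 were positive and 5 negative, and 14 genes had all double samples above all β-catenin OE samples, as in 12.6% of all tested genes. The median over the 28 was 0.53.

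Among 23 tested genes of hair cell synapses, channels and calcium buffers, 2 rose, 0 fell and 21 did not pass. Over all tested genes, 1.22% rose. The list's median of 0.13 was -0.24 between the samples numbered 1 and 0.32 between samples 2 and 3. Its summed levels overlapped, at 640 to 1014 FPKM in the double samples and 795 to 915 FPKM in the β-catenin OE samples. The largest change was in Gng8 (chromosome 7, 16891786 to 16895443), a G protein gamma subunit, which had 7.92, 7.11 and 5.88 FPKM in the double group and 0.602, 1.20 and 0.809 FPKM in the β-catenin OE group. It rose by 2.46 ± 0.31 (limma adjusted p = 0.00258), and the groups did not overlap. Tmem255b, a membrane protein, rose by 1.06 ± 0.23 (limma adjusted p = 0.0342). The defining hair cell markers Myo7a, Pou4f3 and Otof did not pass, with limma adjusted p-values of 0.211, 0.0809 and 0.242. Pou4f3, the transcription factor that hair cells need to survive, had 33.7, 28.8 and 27.9 FPKM in the double group and 24.6, 13.2 and 13.6 FPKM in the β-catenin OE group.

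Some of the supporting cell genes fell. Of 32 tested, 8 fell, 0 rose and 24 did not pass, where 1.5% of all tested genes fell. The 8 were Lfng, Cdkn1b, Ano1, Cyp26b1, Ednrb, Slitrk6, Emid1 and Tectb. Cdkn1b (chromosome 6, 134916323 to 134925525), the cell cycle inhibitor p27Kip1 that keeps supporting cells from dividing, had 63.6, 75.6 and 76.4 FPKM in the double group, against 136, 121 and 108 FPKM in the β-catenin OE group. The groups did not overlap, and Cdkn1b fell with a fold change of -0.75 ± 0.12 (limma adjusted p = 0.00721). Ano1, a calcium-activated chloride channel, had 19.2, 24.3 and 24.7 FPKM in the double group and 69.2, 39.5 and 41.6 FPKM in the β-catenin OE group, where sample 1 was the highest (-1.09 ± 0.19, limma adjusted p = 0.0122). The median over the list was -0.41, but it was -0.78 between the samples numbered 1 and -0.36 between samples 2 and 3. Sox2, the defining transcription factor of the lineage, had 33.9, 27.2 and 30.2 FPKM in the double group and 31.96, 43.1 and 41.4 FPKM in the β-catenin OE group and did not pass (limma adjusted p = 0.366).

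The same direction was seen in part of the tectorial membrane, the extracellular sheet that supporting cells secrete over the hair bundles. Tectb (chromosome 19, 55180438 to 55196313), which encodes β-tectorin, had 1749, 1644 and 1622 FPKM in the double group and 5164, 3166 and 3237 FPKM in the β-catenin OE group. It fell with a fold change of -1.17 ± 0.24 (limma adjusted p = 0.0292), larger between the samples numbered 1, -1.56, than between samples 2 and 3, -0.97. Otogl, otogelin-like, had 20.9, 21.0 and 21.5 FPKM in the double group and 54.4, 37.9 and 38.1 FPKM in the β-catenin OE group and fell likewise, -1.002 ± 0.14 (limma adjusted p = 0.00527). The other 6 of 8 tested matrix genes did not pass, where 1.5% of all tested genes fell. Fold changes over the 8 were divided, 4 positive and 4 negative. Gjb2, the main gap junction connexin of supporting cells, had 218, 211 and 206 FPKM in the double group and 515, 266 and 271 FPKM in the β-catenin OE group, without overlap and without passing (limma adjusted p = 0.172).

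Genes known to answer to Wnt signalling stood higher in the double group in part. Sp5 (chromosome 2, 70448115 to 70482522), a transcription factor directly induced by β-catenin, had 161, 84.6 and 87.5 FPKM in the double group, against 28.3, 45.4 and 45.4 FPKM in the β-catenin OE group. Every double sample was above every β-catenin OE sample, and the 2 samples numbered 1 were the extremes in each direction. Sp5 rose by 1.44 ± 0.28 (limma adjusted p = 0.0234), 2.48 between the samples numbered 1 and 0.92 between samples 2 and 3. Wif1, a secreted Wnt inhibitor, had 137, 223 and 223 FPKM in the double group and 67.5, 94.3 and 93.3 FPKM in the β-catenin OE group and rose by 1.17 ± 0.26 (limma adjusted p = 0.0369). The other 26 of 28 tested Wnt targets and feedback genes did not pass, where 1.22% of all tested genes rose. The list's median was 0.35, with 0.475 between the samples numbered 1 and 0.24 between samples 2 and 3, 22 of 28 fold changes were positive, and the summed level was 1607 to 1745 FPKM in the double samples and 1047 to 1269 FPKM in the β-catenin OE samples. Lgr5 had 49.9, 50.9 and 50.2 FPKM in the double group and 50.1, 33.01 and 32.3 FPKM in the β-catenin OE group, where sample 1 lay within the double samples' range (limma adjusted p = 0.174). Nkd1, an intracellular feedback inhibitor, had 234, 271 and 268 FPKM in the double group and 169, 187 and 202 FPKM in the β-catenin OE group, without overlap and without passing (limma adjusted p = 0.0644).

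Wnt ligands, receptors and core components moved in both directions. Of 48 tested, 3 rose, 5 fell and 40 did not pass, with a median of -0.022. Over all tested genes, 1.22% rose and 1.5% fell. Wnt6 (chromosome 1, 74771892 to 74785319), a Wnt ligand, had 19.2, 20.8 and 20.2 FPKM in the double group, against 2.99, 6.17 and 7.68 FPKM in the β-catenin OE group. The double samples were nearly equal, the β-catenin OE samples were all much lower, and Wnt6 rose by 1.84 ± 0.27 (limma adjusted p = 0.0061). Dkk2, a secreted regulator of the Wnt co-receptors, had 48.9, 54.5 and 57.4 FPKM in the double group and 30.8, 32.3 and 32.2 FPKM in the β-catenin OE group (0.74 ± 0.14, limma adjusted p = 0.0167). Ror2, a receptor for non-canonical Wnts, had 15.99, 13.3 and 13.04 FPKM in the double group and 7.46, 7.61 and 9.15 FPKM in the β-catenin OE group (0.77 ± 0.15, limma adjusted p = 0.0257). Wnt4 had 4.08, 4.55 and 4.54 FPKM in the double group and 10.7, 6.71 and 7.70 FPKM in the β-catenin OE group, and fell with a fold change of -0.83 ± 0.15 (limma adjusted p = 0.0172). The other 4 that fell were Sfrp1, Fzd4, Frzb and Apc.

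In the FGF pathway, which guides the development of pillar cells, 2 of 25 tested genes rose, 2 fell and 21 did not pass. For this list and the BMP list below, the shares over all tested genes were 1.22% that rose and 1.5% that fell. Fgf10, a ligand of the early cochlear duct, had 13.9, 15.2 and 15.6 FPKM in the double group and 40.1, 29.3 and 27.2 FPKM in the β-catenin OE group (-1.07 ± 0.17, limma adjusted p = 0.00801). Its receptor gene Fgfr2 had 13.7, 12.3 and 13.1 FPKM in the double group and 18.6, 21.4 and 20.6 FPKM in the β-catenin OE group and also fell (-0.61 ± 0.12, limma adjusted p = 0.027). The feedback inhibitors Spry1 (0.63 ± 0.14, limma adjusted p = 0.044) and Il17rd (0.53 ± 0.12, limma adjusted p = 0.0358) rose. In BMP signalling, 4 of 24 tested genes fell, 0 rose and 20 did not pass. The median of -0.33 was -0.52 between the samples numbered 1 and -0.16 between samples 2 and 3. The ligand Gdf6 had 8.94, 7.91 and 7.24 FPKM in the double group and 21.8, 16.5 and 16.4 FPKM in the β-catenin OE group (-1.13 ± 0.16, limma adjusted p = 0.0043). Bmp5, another ligand, also fell (-0.60 ± 0.13, limma adjusted p = 0.0333). Chrdl1, a secreted BMP antagonist, fell as well (-1.07 ± 0.17, limma adjusted p = 0.00832).

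Of 18 tested genes of retinoic acid, a vitamin A derivative that acts through nuclear receptors, 1 rose, 2 fell and 15 did not pass. The shares over all tested genes were 1.22% that rose and 1.5% that fell. Aldh1a2 (chromosome 9, 71215789 to 71296243), an enzyme that makes retinoic acid, had 10.8, 8.99 and 8.70 FPKM in the double group, against 23.8, 26.05 and 25.4 FPKM in the β-catenin OE group. The groups were far apart and each was tight, and the fold change was -1.36 ± 0.17 (limma adjusted p = 0.00258). Cyp26b1, an enzyme that breaks retinoic acid down, had 5.31, 3.06 and 2.91 FPKM in the double group and 12.3, 9.77 and 9.23 FPKM in the β-catenin OE group, and it too fell (-1.39 ± 0.27, limma adjusted p = 0.0206). Stra6, a receptor that takes up vitamin A from its carrier in blood, had 15.7, 10.6 and 11.7 FPKM in the double group and 4.97, 5.05 and 5.63 FPKM in the β-catenin OE group and rose by 1.19 ± 0.20 (limma adjusted p = 0.0119).

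Among 23 tested transcription factors of the otic and prosensory lineage, 1 rose, 3 fell and 19 did not pass. Over all tested genes, 1.22% rose and 1.5% fell. Isl1, a LIM homeobox factor of prosensory cells and neurons, had 52.6, 49.3 and 51.1 FPKM in the double group and 75.1, 71.8 and 68.5 FPKM in the β-catenin OE group (-0.49 ± 0.091, limma adjusted p = 0.0172). Lmx1a, a LIM homeobox factor of the non-sensory epithelium, fell with a fold change of -1.12 ± 0.26 and passed narrowly (limma adjusted p = 0.0496), as it did in 6 of the 26 other settings, with -0.48 between the samples numbered 1 and -1.43 between samples 2 and 3. Tbx18, a factor of the otic mesenchyme, fell with a fold change of -0.50 ± 0.10 (limma adjusted p = 0.0267). Dlx3, a homeobox factor of the otic placode, had 1.49, 2.24 and 2.27 FPKM in the double group and 0.575, 0.695 and 0.891 FPKM in the β-catenin OE group and rose by 1.03 ± 0.19 (limma adjusted p = 0.0178).

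No gene on the lists of G2, M phase and mitosis or of DNA replication and S phase passed in limma, and the medians of both lists differed in sign between libraries 1 and libraries 2 and 3. In limma 0 of 38 tested genes of G2, M phase and mitosis passed and 0 had an unadjusted p under 0.05, although 37 had a positive fold change. Their median was 1.91 between the samples numbered 1 and -0.33 between samples 2 and 3. The summed level of this list was 218 to 293 FPKM in the double samples and 63.6 to 286 FPKM in the β-catenin OE samples. Cdca8, a member of the chromosomal passenger complex, showed the same split, with 9.55, 6.70 and 6.08 FPKM in the double group and 1.46, 6.83 and 6.58 FPKM in the β-catenin OE group, where sample 1 alone was low. For DNA replication and S phase, 0 of 34 tested genes passed in limma and 0 had an unadjusted p under 0.05, with medians of 0.93 between the samples numbered 1 and -0.076 between samples 2 and 3. Of 13 tested D cyclins and CDK inhibitors, Cdkn1b fell, as above, and Cdkn1c, the inhibitor p57Kip2, rose, with 179.7, 120.2 and 127 FPKM in the double group and 55.6, 79.2 and 81.2 FPKM in the β-catenin OE group (0.97 ± 0.22, limma adjusted p = 0.0388). Over all tested genes only 1.22% rose and 1.5% fell, so nothing is read from the counts of these cell cycle lists.

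Several of the largest rises were in genes that were low in the β-catenin OE group. Dcpp2 and Dcpp1, neighbouring genes for secreted proteins first known from salivary glands, rose by 3.96 ± 0.58 and 3.71 ± 0.41 on the log2 scale. Dcpp2 had 6.69, 32.7 and 34.1 FPKM in the double group and 0.253, 2.24 and 0.560 FPKM in the β-catenin OE group. The 2 genes are close paralogs, so the split of fragments between them is uncertain. Cbln2, a cerebellin that organises synapses, had 14.8, 13.4 and 15.4 FPKM in the double group and 0.418, 3.35 and 3.35 FPKM in the β-catenin OE group, and the related Cbln1 had 12.3, 17.6 and 17.98 FPKM in the double group and 1.99, 5.14 and 5.14 FPKM in the β-catenin OE group. Both rose, by 2.65 ± 0.43 for Cbln2 (limma adjusted p = 0.00932) and 1.92 ± 0.34 for Cbln1 (limma adjusted p = 0.0134). Tph2, the enzyme for serotonin synthesis in neurons, rose by 2.49 ± 0.48 (limma adjusted p = 0.0214). In Cbln2 and Tph2 alike, β-catenin OE sample 1 was the lowest of its group.

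Among more abundant rising genes, Prss56, a secreted serine protease, had 150.1, 176 and 173 FPKM in the double group, against 16.9, 56.4 and 62.98 FPKM in the β-catenin OE group, where sample 1 was again the lowest. It rose by 2.07 ± 0.42, 3.12 between the samples numbered 1 and 1.54 between samples 2 and 3 (limma adjusted p = 0.0267). Mgp (chromosome 6, 136872435 to 136875805), matrix Gla protein, an inhibitor of calcification, had 609, 1113 and 1088 FPKM in the double group and 145, 298 and 277 FPKM in the β-catenin OE group and rose by 1.98 ± 0.35 (limma adjusted p = 0.0134). Ivl, involucrin, a protein of the cornified envelope of skin, had 5.90, 8.25 and 8.79 FPKM in the double group and 1.32, 1.61 and 1.47 FPKM in the β-catenin OE group, with β-catenin OE sample 1 close to the other samples of its group (2.04 ± 0.17, limma adjusted p = 0.00038). Vcan, the proteoglycan versican, rose by 2.04 ± 0.36 and Saa3, an acute phase protein, by 2.05 ± 0.38. Saa3 had 5.92, 1.69 and 1.83 FPKM in the double group, so its highest value came from sample 1.

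Among the genes with the largest falls, Slc6a14, an amino acid transporter, had 1.18, 1.40 and 1.39 FPKM in the double group and 7.30, 5.59 and 5.499 FPKM in the β-catenin OE group (-1.85 ± 0.20, limma adjusted p = 0.0017). Pcsk2, a convertase that cuts prohormones, had 1.22, 1.97 and 2.48 FPKM in the double group and 6.82, 7.64 and 8.25 FPKM in the β-catenin OE group (-1.79 ± 0.21, limma adjusted p = 0.0024). The groups did not overlap for either of these genes. Umodl1, uromodulin-like 1, had 10.4, 13.8 and 13.4 FPKM in the double group and 66.9, 31.2 and 33.1 FPKM in the β-catenin OE group (-1.68 ± 0.27, limma adjusted p = 0.0088). Pla2g4e, a cytosolic phospholipase, fell with a fold change of -1.92 ± 0.29, Tdh, the mitochondrial threonine dehydrogenase, with one of -1.97 ± 0.30, and Krtdap, a keratinocyte protein, with one of -2.03 ± 0.47. Asphd1 was below 3 FPKM in all 6 samples (-1.65 ± 0.34). Dynlt1b, a dynein light chain with near-identical copies among which fragments are uncertain, had a fold change of -1.94 ± 0.32.

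**Figure D3:**
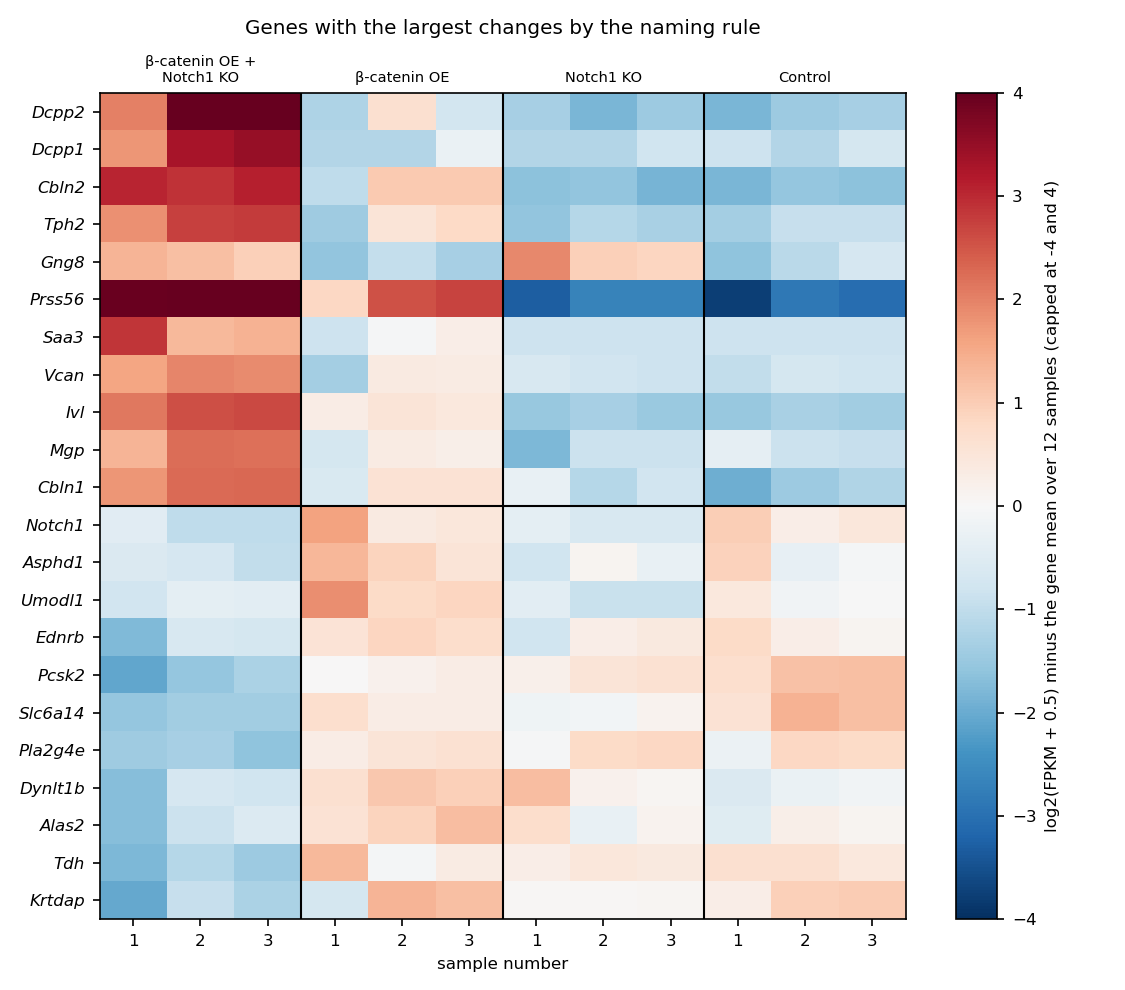
Rows are 11 rising and 11 falling genes among those named by size of change, columns the 12 samples by group, and the colour is log2(FPKM + 0.5) minus the mean of the gene over the 12 samples, capped at 4 in either direction. Samples of the double group are red throughout the upper rows and blue throughout the lower rows, and β-catenin OE sample 1 is paler or bluer than samples 2 and 3 for Cbln2, Tph2, Prss56 and Vcan.

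Summed levels of neuron and glia markers were also lower in the double group. Of 28 tested genes of spiral ganglion neurons, 3 fell, 0 rose and 25 did not pass, where 1.5% of all tested genes fell. The median of -0.73 was -1.18 between the samples numbered 1 and -0.39 between samples 2 and 3. Their summed level was 576 to 685 FPKM in the double samples and 881 to 1245 FPKM in the β-catenin OE samples. Syt1, a calcium sensor of synaptic vesicles that hair cells and neurons both can express, had 14.3, 13.8 and 13.4 FPKM in the double group and 32.9, 24.9 and 26.5 FPKM in the β-catenin OE group (-0.99 ± 0.11, limma adjusted p = 0.0017). Gap43, a protein of growing axons, had 2.62, 4.52 and 3.91 FPKM in the double group and 5.995, 7.25 and 9.83 FPKM in the β-catenin OE group (-0.97 ± 0.22, limma adjusted p = 0.0419). For Schwann cells and glia the median over 22 tested genes was -1.12, with 2 that fell and 20 that did not pass. Their summed level was 781 to 1031 FPKM in the double samples and 2338 to 2348 FPKM in the β-catenin OE samples. The 2 were Ugt8a, an enzyme of myelin lipid synthesis (-1.44 ± 0.32, limma adjusted p = 0.0401), and S100b, a calcium-binding protein that supporting cells also make (-0.78 ± 0.18, limma adjusted p = 0.0417). The part of neuron and glia content in the falls described above was not tested.

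Of 20 tested genes of the stria vascularis, which secretes endolymph, 1 rose (Stra6) and 2 fell (Ttyh1 and Tbx18). The median was -0.41, with 5 positive and 15 negative fold changes. For this list and the melanocyte and mesenchyme lists below, the shares over all tested genes were 1.22% that rose and 1.5% that fell. Of 12 tested genes of melanocytes and strial intermediate cells, Ednrb, the endothelin B receptor, fell, with 4.37, 10.1 and 9.72 FPKM in the double group and 23.9, 29.4 and 26.2 FPKM in the β-catenin OE group (-1.74 ± 0.34, limma adjusted p = 0.0238). Of 23 tested genes of mesenchyme and fibroblasts, Mgp rose and Gsn, Otor and Tbx18 fell, with 5 positive and 18 negative fold changes. Otor, otoraplin, a secreted cochlear protein, had 655, 783 and 815 FPKM in the double group and 1553, 1504 and 1388 FPKM in the β-catenin OE group (-0.98 ± 0.22, limma adjusted p = 0.0369). Collagens had 1 of 30 tested that fell, Col14a1 (-1.40 ± 0.24, limma adjusted p = 0.0122), and a median of -0.26, where 2.72% of all tested genes passed. Erythroid genes were scarce, with 4 tested, and Alas2, the red cell enzyme of haem synthesis, fell (-1.94 ± 0.34, limma adjusted p = 0.0124).

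Other lists had few genes or none that passed. In limma 0 of 22 tested macrophage and immune genes passed, with 2 at an unadjusted p under 0.05, and their median was 1.11 between the samples numbered 1 and 0.11 between samples 2 and 3. Lyz2, a lysozyme of macrophages, had 112, 22.7 and 20.6 FPKM in the double group, where sample 1 stood alone, and 11.4, 13.1 and 15.1 FPKM in the β-catenin OE group. Interferon response genes were split likewise, with 0 of 24 passing in limma, 1 at an unadjusted p under 0.05, and medians of 0.99 between the samples numbered 1 and -0.29 between samples 2 and 3. Limma also called 0 of 21 endothelial and pericyte genes (5 at an unadjusted p under 0.05), 0 of 17 bone and cartilage genes (1 at an unadjusted p under 0.05) and 0 of 6 skeletal muscle genes (0 at an unadjusted p under 0.05). Immediate early genes had 1 of 20 tested that fell, Klf4 (-0.82 ± 0.19, limma adjusted p = 0.0413). Of 17 tested clock genes, Tef (-0.62 ± 0.10, limma adjusted p = 0.0104) and Per3 (-0.62 ± 0.13, limma adjusted p = 0.0344) fell. Of 21 tested p53 targets, Plk3, a stress-response kinase, rose by 1.09 ± 0.16 (limma adjusted p = 0.00567). Beside the 2.72% of all tested genes that passed, nothing is read from counts of 1 or 2 about lists of this size.

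**Figure D4:**
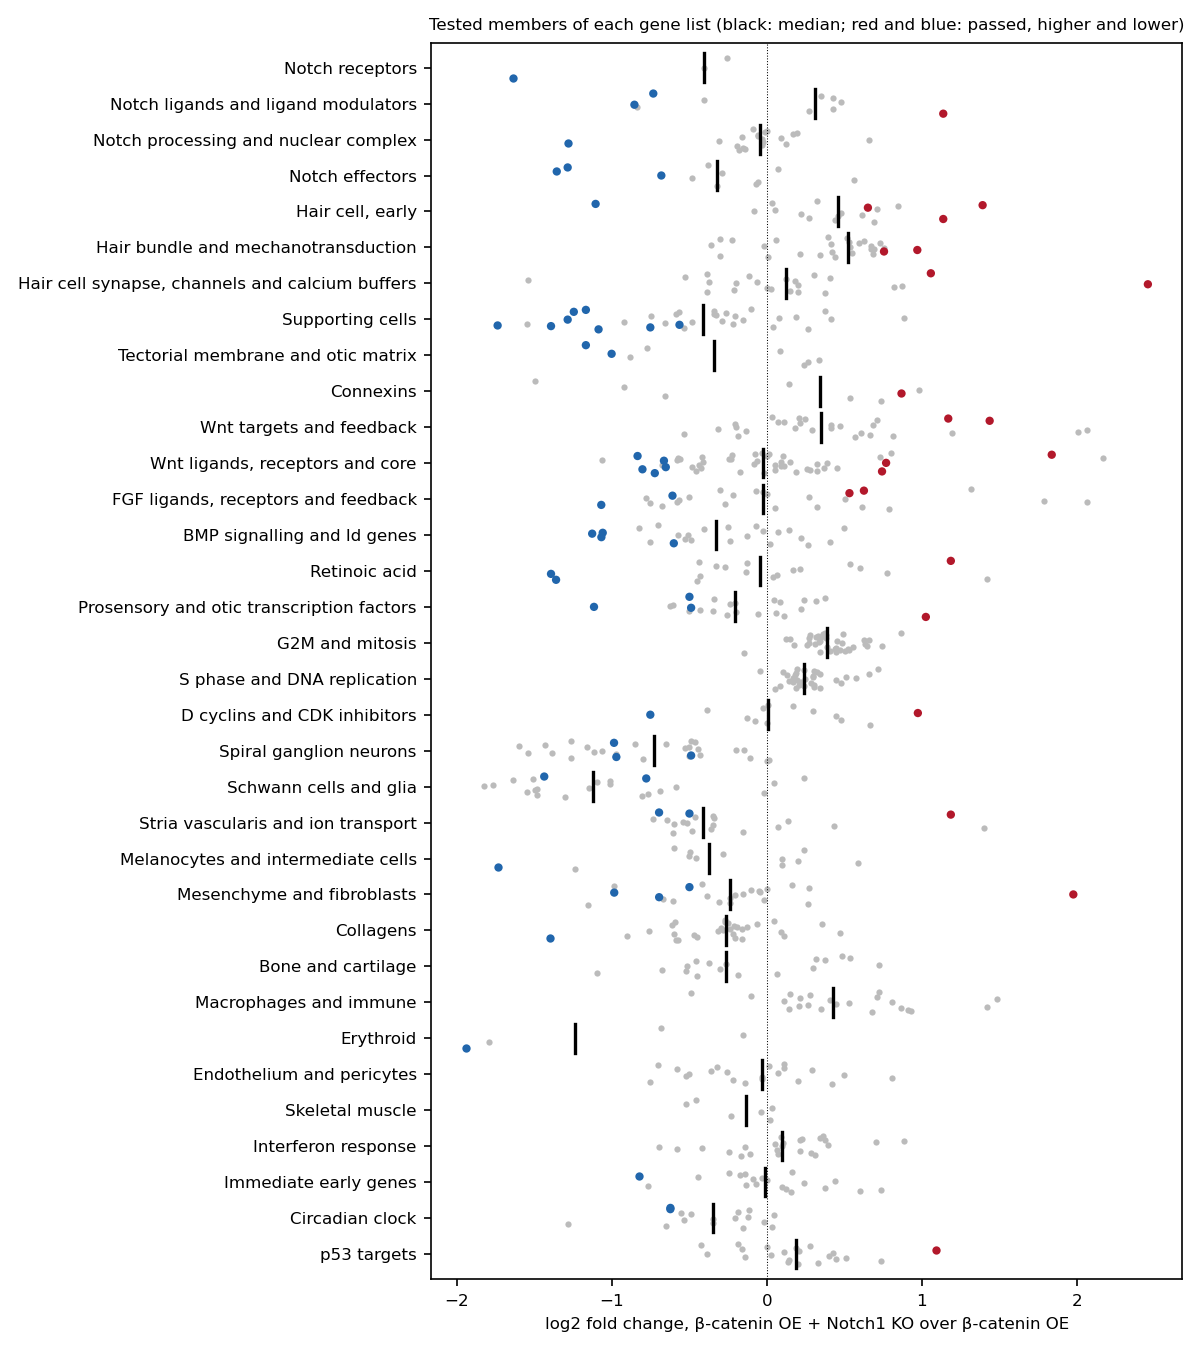
Each point is a tested gene of a list and its x position the log2 fold change of the double over the β-catenin OE group, with red and blue points for genes that passed and a black bar at the median of the list. Medians lie lowest for erythroid genes (-1.24), Schwann cells and glia (-1.12) and spiral ganglion neurons (-0.73) and highest for the hair bundle list (0.53) among the lists drawn. The list of 5 tested sex-linked transcripts, whose median was 1.49, is not drawn.

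Loss of Notch1 without β-catenin activation, Notch1-KO against Control, sets the group means of the other 6 samples beside those above. Both comparisons come from 1 model over all 12 samples and share its estimate of the spread, so the 2 lists of calls are not independent. Here 125 of 14581 genes (0.857%) passed in limma, 78 higher and 47 lower, and 237 passed with the sample number as a block. Of the 396 and the 125 genes, 38 were in both lists, which is 9.6% of the 396 and 30.4% of the 125. They moved in the same direction in 37 cases, 19 higher and 18 lower. Agreement was less complete over all 396 genes. Of the 178 higher genes, 109 had a positive fold change for Notch1-KO against Control. Of the 218 lower genes, 185 had a negative one. The median of this comparison over all 14581 tested genes was -0.007. Lfng had 22.3, 22.97 and 23.2 FPKM in the Notch1-KO group, against 81.2, 68.4 and 80.05 FPKM in the Control group (-1.72 ± 0.15, limma adjusted p = 0.00159), a fall also called in this background. Gng8 had 11.97, 5.92 and 5.505 FPKM in the Notch1-KO group and 0.576, 1.06 and 1.57 FPKM in the Control group, and rose by 2.37 ± 0.31 here beside 2.46 ± 0.31 on active β-catenin. Rasd2 rose by 1.38 ± 0.17, beside 1.39 ± 0.17 on active β-catenin. Grxcr2 and Fscn2 rose in both, and Hey1, Heyl and Slc6a14 fell in both. List medians here were 0.91 for early hair cells, 0.83 for the hair bundle and -0.35 for supporting cells. On active β-catenin they were 0.46, 0.53 and -0.41. Of the 28 hair bundle genes 9 rose here, where 0.535% of all tested genes did. Medians of Wnt targets and of Schwann cells and glia were -0.10 and -0.19 here, beside 0.35 and -1.12. Jag1 fell on active β-catenin alone by the threshold, with 33.2, 25.6 and 25.3 FPKM in the Notch1-KO group and 31.9, 40.4 and 40.96 FPKM in the Control group (-0.43 ± 0.14, limma adjusted p = 0.294), but its interaction, the test of whether the 2 effects differ, did not pass (limma adjusted p = 0.601).

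**Figure D5:**
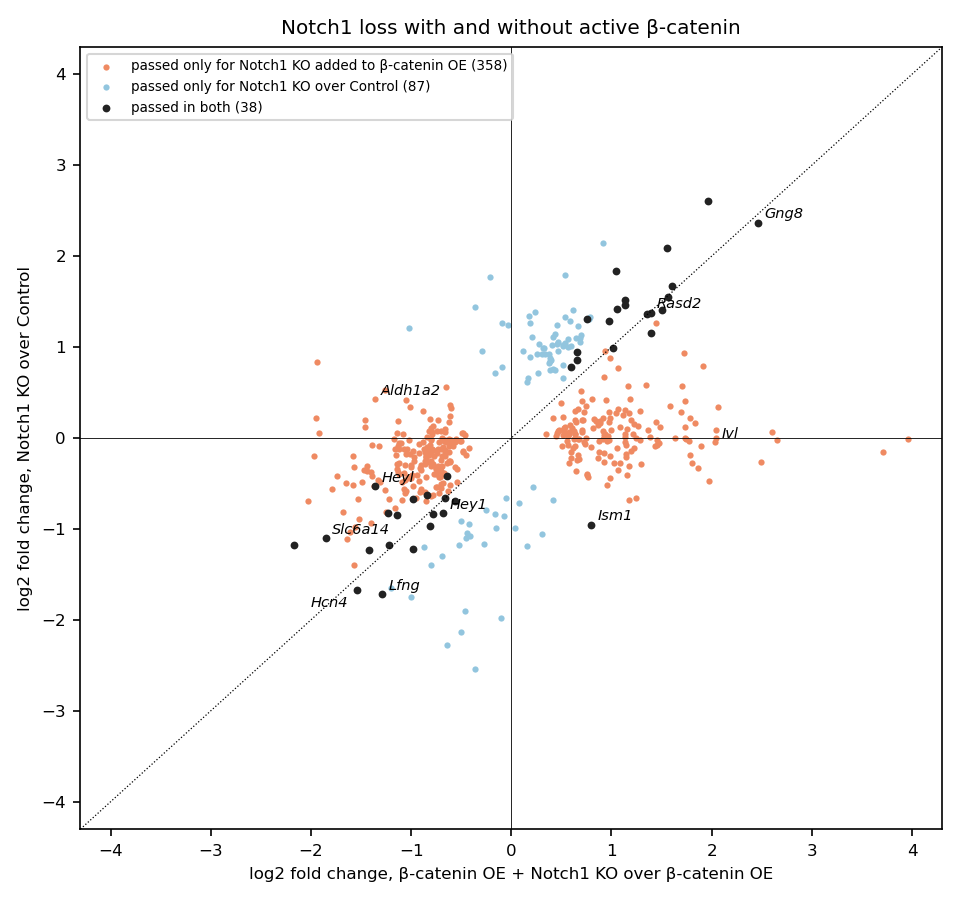
Genes that passed in either comparison, with the log2 fold change of the double over the β-catenin OE group on the x axis and of Notch1-KO over Control on the y axis. Of the 38 black points, which passed in both, 37 lie in the upper right or lower left quadrant, and Ism1 alone lies in the lower right.

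The interaction was called for 3 of 14581 genes in limma (0.0206%), with 1226 at an unadjusted p under 0.05. Ism1 (chromosome 2, 139673442 to 139758774), the secreted protein isthmin, had 39.7, 44.5 and 48.1 FPKM in the double group, against 19.9, 28.2 and 27.8 FPKM in the β-catenin OE group. Without β-catenin activation it had 5.40, 6.09 and 5.90 FPKM in the Notch1-KO group, against 10.96, 12.2 and 11.9 FPKM in the Control group. Ism1 thus rose with Notch1 loss where β-catenin was active (0.80 ± 0.14) and fell where it was not (-0.95 ± 0.14), with no overlap in either, and the interaction was 1.75 ± 0.19 (limma adjusted p = 0.0166). Aldh1a2 had 39.2, 41.96 and 41.2 FPKM in the Notch1-KO group and 21.7, 35.5 and 35.6 FPKM in the Control group, where it did not pass, and its interaction was -1.79 ± 0.24 (limma adjusted p = 0.049). Ivl had 0.0178, 0.0833 and 0.0315 FPKM in the Notch1-KO group and 0.0188, 0.0969 and 0.0672 FPKM in the Control group, all below 0.1 FPKM, where the pseudocount holds a fold change near 0, and its interaction was 2.08 ± 0.24 (limma adjusted p = 0.0166). With samples 2 and 3 averaged, 0 interactions passed in limma (454 at an unadjusted p under 0.05), and with these as a random block 0 passed as well (476 at an unadjusted p under 0.05). Leaving out double samples 1, 2 and 3 gave 9, 0 and 0, and the count was 28, 1 and 0 without β-catenin OE samples 1, 2 and 3, 12, 0 and 0 without Notch1-KO samples 1, 2 and 3, and 67, 0 and 0 without Control samples 1, 2 and 3.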

How the data were processed

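RNA sequencing of the 12 samples was deposited by the authors as 1 table of FPKM values. Tools listed in the submitters' processing notes, without their roles, are Bowtie2 2.2.1, TopHat2 2.0.10, Cufflinks 2.2.1, Cuffdiff, Trimmomatic 0.23 and CASAVA 1.8, with the mouse build mm10. The sources used here do not give the annotation, filters or any further scaling. The table has 23598 rows, of which 647 merge several genes, and 514 symbols stand in more than 1 row, of which the most highly expressed was taken as the gene. All per-sample columns were used, and the 6 columns of the authors' own comparisons were not. Locus starts were raised by 1 base to count from 1.

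Rows were tested where 3 or more samples reached 0.5 FPKM, which left 14581. The test was limma 3.58.1 (R 4.3.3) on log2(FPKM + 0.5), fitted to the 4 group means over all 12 samples with trended empirical Bayes, and p-values are two-sided with Benjamini-Hochberg adjustment at 0.05. Fold changes on this scale understate the change of low genes. FPKM allows no count test. An exact 0 can be a failed estimate. The script was tested on simulated data. Depth is not given. In the samples numbered 2 and 3 of the 2 main groups, low values lay on steps of whole fragments that correspond to 19200000 to 24400000 fragments if FPKM was not scaled further, and in the samples numbered 1 depth is unknown. Same-numbered samples of the Notch1-KO and Control groups deviated together (correlations of 0.209, 0.188 and 0.219 for numbers 1, 2 and 3), while in the double and β-catenin OE groups number 2 did not pass 0.1, so for Notch1-KO against Control the count with a block is also given. Settings tried included the pseudocount, filter, scaling, block terms and leaving out each sample.

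Members, gene lists and tests were chosen with earlier results of these data known, so list counts carry no test. Named genes are Notch1, Ctnnb1 and the markers Heyl, Lfng, Rasd2 and Jag1, the 12 genes that rose and the 12 that fell most among those that passed without overlap and averaged 1 FPKM or more in either group, leaving out predicted models, merged rows, ribosomal proteins and small RNAs, up to 4 members of each list by p, any Notch gene, and the genes called in the interaction. Lists share members, such as Lfng, Ednrb, Cdkn1b and Tbx18. Cell type markers shown outside this rule were fixed as tissue checks, and other genes named outside it (Sfrp1, Fzd4, Frzb, Apc, Slitrk6, Emid1, Lgr5, Nkd1 and Dkk4) were chosen after their values were seen. Promoter windows come from RefSeq. Windows for Heyl, Hey1 and Hes1 were not used here. Some genes that the rule takes are not reported here.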

Additional observations from a re-analysis of the deposited data

Results flagged for a closer look

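Limma's interaction term, with Benjamini-Hochberg adjustment, tests whether the effect of Notch1 loss differed between the backgrounds with and without active β-catenin. It passed for 3 genes in the main fit and for 0 with samples 2 and 3 as a random block. The interaction, the log2 fold change of the double over the β-catenin OE group minus that of Notch1-KO over Control, was 1.75 for Ism1, -1.79 for Aldh1a2 and 2.08 for Ivl. Ism1 moved in opposite directions in the 2 backgrounds. Aldh1a2 averaged 9.49 ± 1.14 FPKM in the double group, 25.1 ± 1.16 FPKM in the β-catenin OE group, 40.8 ± 1.42 FPKM in the Notch1-KO group and 31.0 ± 8.03 FPKM in the Control group (SD, n = 3 each). Ivl was above 1 FPKM in every sample with active β-catenin and below 0.1 FPKM in every sample without it. At such low levels the pseudocount holds a fold change near 0, so a differing effect on Ivl could not be measured.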

How the results depend on the processing

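The 396 calls (178 higher, 218 lower) stayed within 1.5 times under both other pseudocounts, both other filters, median centring, quantile normalization and both other empirical Bayes settings. With the 2 groups alone the count was 228 (90 higher, 138 lower), with a batch term for sample number 1 it was 1371 (655 and 716), with samples 2 and 3 as a random block 19 (6 and 13), with samples 2 and 3 alone 4281 (2100 and 2181), and with samples 2 and 3 averaged 0 in either direction. Leaving out single samples gave 113 to 1023 calls, 40 to 425 higher and 73 to 598 lower. Nothing in the labels pairs the samples by number. Correlations of same-numbered deviations between the double and β-catenin OE groups were 0.277, 0.0635 and 0.229 for numbers 1, 2 and 3, and only double sample 1 correlated best with its own number. In the other 5 pairs of groups they were 0.187 to 0.470 for every number. A replicate block gave 826 calls (396 higher, 430 lower), 53 interactions and 237 calls for Notch1-KO against Control.

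The 3 interactions became 1 with a pseudocount of 0.1, 7 with no filter, 6 with quantile normalization, 177 with the batch term, 2810 with samples 2 and 3 alone and 0 with these averaged or as a random block, and 0 to 67 without single samples. The 125 calls for Notch1-KO against Control became 370 with the batch term, 5 with the random block, 1735 with samples 2 and 3 alone, 0 with these averaged and 14 to 213 without single samples. The cause of these moves was not tested. Of 76 genes taken by the naming rule that passed, 13 passed with the random block and 40 with the 2 groups alone. Of these 76, 0 reversed in any setting, but all lacked overlap between the groups. In such genes, leaving out or averaging samples cannot turn the sign. Of the 26 other settings, Hey1 passed in 5, Lmx1a in 6, Krtdap, Pcp4 and S100b in 11 each, and Cdkn1c, Otor and Spry1 in 12 each. Among named genes that did not pass, signs turned for Cdca8 (-0.066), E2f1 (-0.0335) and Rbpj (0.0819) with samples 2 and 3 alone, for Notch3 (0.119) and Rbpj (0.0366) without β-catenin OE sample 1, and for Rbpj (0.0321) without double sample 1. Over all single samples left out, Notch3 ranged from -0.512 to 0.119 and Rbpj from -0.0606 to 0.0366.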
